A study of Mus musculus with 3 samples.

Results

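The Bcl2 family decides whether the outer mitochondrial membrane is opened during apoptosis. Its anti-apoptotic proteins (Bcl2, Bcl2l1, Bcl2l2 and Mcl1) hold the pore-forming effectors Bax and Bak1 in check. The BH3-only proteins (Bid, Bad, Bcl2l11 and Bbc3) bind the anti-apoptotic proteins, and some of them also activate the effectors directly. In pigment cells, Mitf, the transcription factor that directs the melanocyte lineage, is known as an activator of Bcl2, and melanoma cells commonly rely on Mcl1 and Bcl2l1 for survival. These 10 genes were taken by symbol from a table of 12852 genes, and all 10 were found there, each once.

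RNA sequencing had been done on B16F10 cells, a pigmented mouse melanoma line grown in serum-containing medium. The 2 knockdown libraries were titled siMed23A and siMed23B and labelled as Med23 knockdowns, and the 1 control library was titled siCtrl and labelled wild type. Med23 is a subunit of Mediator, which links transcription factors to RNA polymerase II. By its title the series asked how Med23 bears on pigmentation and DNA repair by way of Mitf. The labels used here give no siRNA sequence, dose or time after transfection, and do not say whether A and B are different siRNAs or repeat cultures. The spread between the knockdown libraries, and every p-value resting on it, may therefore be technical. One header cell held both knockdown names, so these libraries are called first and second by their place in the table.

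Values are RPKM, a read density per length of transcript that allows levels of different genes to be compared within a library. They are per gene and do not separate splice forms, which for Bcl2l1, Mcl1 and Bcl2l11 encode proteins of different activity. A log2 ratio is siMed23 over siCtrl of RPKM + 1, and a gene passed the test when limma's Benjamini-Hochberg adjusted p over 9722 tested genes was under 0.05. All 10 members had a mean of at least 1 RPKM and were tested. Read depth is unknown, because the values used here are RPKM, without counts or read totals. The authors' values also share a single distribution over the 3 libraries.

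Med23 was 1.65 and 1.61 RPKM in the knockdown libraries and 5.23 RPKM in the control, lower in both libraries labelled as knockdowns. All 6 melanocyte markers examined (Tyr, Tyrp1, Dct, Pmel, Mlana and Sox10) had values in every library. Their summed level was 2972 and 2864 RPKM after knockdown, against 6914 RPKM in the control, and all 6 fell past limma's test. Of 14 markers of immune, epithelial, endothelial and fibroblast cells, 11 were not found under these symbols among the 12852 genes. The summed level of the other 3 was 10.7 and 11.0 RPKM after knockdown, against 17.2 RPKM in the control. Most of that sum was Cd68, a lysosomal protein used as a macrophage marker, at 10.0 and 10.1 RPKM after knockdown and 16.9 RPKM in the control. Col1a1 and Pdgfra were low and went the other way. Pdgfra had 0.449 and 0.519 RPKM after knockdown, against 0.151 RPKM in the control. Col1a1 had 0.200 and 0.405 RPKM after knockdown, against 0.189 RPKM in the control. The part of these shifts in the results below was not tested. In bulk RNA, fewer cells of a type and less RNA per cell cannot be told apart.

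After Med23 knockdown, 3 of the 4 anti-apoptotic genes fell, the other one rose, neither effector passed the test, and the BH3-only genes split. In all, 7 of the 10 members passed limma's test, with 3 higher (Bcl2l2, Bbc3 and Bad) and 4 lower (Bcl2l1, Bcl2, Mcl1 and Bid). Of all genes tested 50.3% passed, 26.3% higher and 24.0% lower, so a gene past the test was common in these libraries. By size alone, 6 members were changed 1.5-fold or more in each knockdown library, 2 higher and 4 lower, against 28.1% of all tested genes (14.6% higher and 13.5% lower). Bcl2 and Bcl2l1, the only 2 members past 2-fold in each, were lower, as were 4.76% of all tested genes. In all 10 members both knockdown libraries lay on one side of the control, which held for 90.8% of tested genes. Every p-value assumes that the lone control varies like the knockdown libraries. With its SD taken as 3 times theirs, 0 members passed limma's test (adjusted p between 0.0789 and 0.922), against 2.01% of tested genes, and 5 members had an unadjusted p under 0.05.

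**Figure D1:**
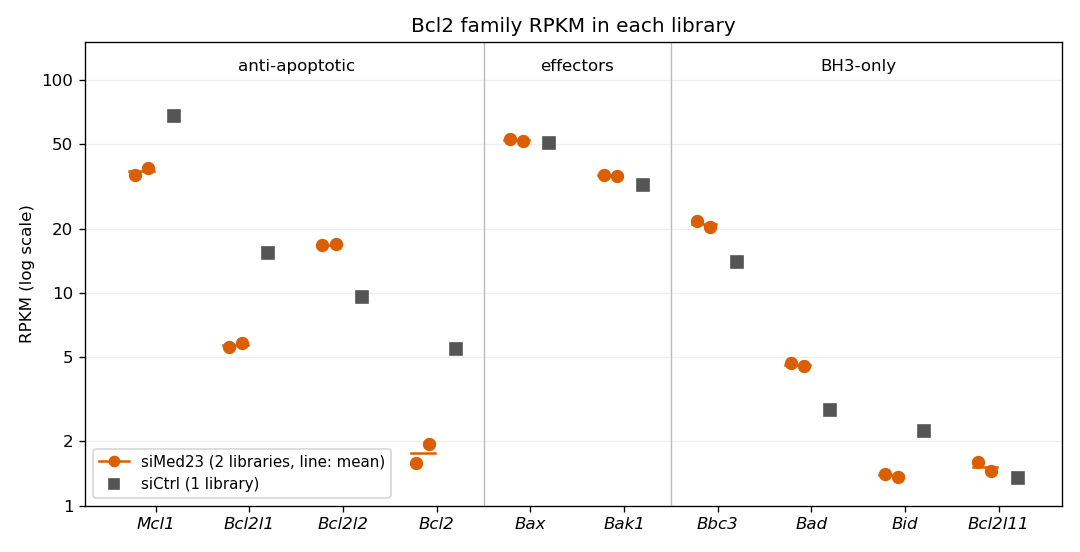
RPKM of the 10 members on a log axis, with the 2 siMed23 libraries as circles (line: their mean) to the left of the single siCtrl library as a square. Mcl1, Bcl2l1, Bcl2 and Bid sit lower in both knockdown libraries, Bcl2l2, Bbc3 and Bad sit higher, and Bax, Bak1 and Bcl2l11 lie close to the control.

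Mcl1, a short-lived guardian protein that binds Bak1 and several BH3-only proteins, was the most abundant of the 10 members in the control. It had 35.7 and 38.7 RPKM in the knockdown libraries, against 67.9 RPKM in the control. Both knockdown values were far below the control, and the log2 ratio was -0.85 (SE 0.08, adjusted p = 0.00136 by limma). By rank among all 12852 genes it stood at 1176 and 1077 after knockdown and at 588 in the control.

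Bcl2l1, which encodes Bcl-xL, had 5.54 and 5.78 RPKM in the knockdown libraries, against 15.4 RPKM in the control. The knockdown libraries differed from each other by far less than from the control, and the level was 2.71-fold lower on average. Its log2 ratio, -1.30 (SE 0.10, adjusted p = 0.000792 by limma), was the lowest of the 10 members, the 146th lowest of 9722. Bcl2, the founding anti-apoptotic gene, had 1.58 and 1.94 RPKM after knockdown, against 5.46 RPKM in the control. This was a 3.10-fold lower mean. The log2 ratio was -1.23 (SE 0.13, adjusted p = 0.00191 by limma), the 175th lowest of 9722. Adding 1 to each RPKM compresses low values, so this ratio understates the fold change of Bcl2. With 0.1 added in place of 1, Bcl2 was the lower of these genes, at -1.584, and Bcl2l1 was at -1.425. After a correction for transcript length and GC content the log2 ratio was -0.93 for Bcl2 and -1.41 for Bcl2l1. GENCODE M21 places 558 bases of Bcl2 exons under D630008O14Rik, an antisense gene that is not among the 12852 genes. Whether reads were counted by strand was not given in the sources used here, so reads of such partners cannot be told apart.

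Bcl2l2, which encodes Bcl-w, moved the other way. It had 16.7 and 16.98 RPKM in the knockdown libraries, against 9.58 RPKM in the control. The knockdown mean was 16.8 ± 0.195 RPKM (SD, n = 2), and both libraries were well above the control. The log2 ratio was 0.75 (SE 0.09, adjusted p = 0.00241 by limma). In the same annotation 594 bases of Bcl2l2 exons are shared with Gm20521, a gene on the same strand that is not among the 12852 genes. The level of Bcl2l2 is therefore uncertain where reads were split between them.

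The make-up of the anti-apoptotic transcripts differed between the groups. Mcl1 made up 59.9% and 61.0% of their summed RPKM after knockdown, against 69.1% in the control. Bcl2l2 made up 28.1% and 26.8% after knockdown, against 9.74% in the control. Bcl2l1 accounted for 9.31% and 9.12% after knockdown, against 15.6% in the control. Bcl2l2 was thus the second most abundant anti-apoptotic transcript in both knockdown libraries and the third in the control. Its ratio to Bcl2l1 was 3.01 and 2.94 after knockdown and 0.623 in the control. Bcl2 stayed last, at 2.66% and 3.07% after knockdown, against 5.55% in the control.

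Mitf binds E-boxes, with CACGTG and CATGTG as core sequences, so promoter windows of the members were searched for these letters on both strands. CACGTG reads the same on both strands, and CATGTG reads CACATG on the other. The windows are RefSeq's, build GRCm38.p6, from 250 bases before to 50 bases after each annotated start, and were matched by symbol for all 10 members (16 windows). The deposited values name another build, mm9, so the windows serve for sequence only. Of the 16 windows, 3 held a match, in Bcl2l1, Bax and Bbc3. Either motif was held by 20.4% of all 32817 windows of this length, CACGTG by 7.15% and CATGTG by 14.2%. The windows of the genes with the largest falls are shown, with E-box letters in capitals. That of Bcl2 lies at chr1:106714241-106714540 on the minus strand and has 76.0% G and C. That of Mcl1 lies at chr3:95658471-95658770 on the plus strand. For Bcl2l1 the table lists 3 windows, and the most downstream one, at chr2:152828440-152828739 on the minus strand, is the one with a match.
Bcl2: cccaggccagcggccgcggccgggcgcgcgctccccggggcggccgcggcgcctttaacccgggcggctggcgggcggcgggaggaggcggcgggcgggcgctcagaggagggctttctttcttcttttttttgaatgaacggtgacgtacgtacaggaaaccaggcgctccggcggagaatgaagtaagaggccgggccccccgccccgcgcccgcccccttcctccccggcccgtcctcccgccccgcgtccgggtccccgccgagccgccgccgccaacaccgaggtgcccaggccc
Mcl1: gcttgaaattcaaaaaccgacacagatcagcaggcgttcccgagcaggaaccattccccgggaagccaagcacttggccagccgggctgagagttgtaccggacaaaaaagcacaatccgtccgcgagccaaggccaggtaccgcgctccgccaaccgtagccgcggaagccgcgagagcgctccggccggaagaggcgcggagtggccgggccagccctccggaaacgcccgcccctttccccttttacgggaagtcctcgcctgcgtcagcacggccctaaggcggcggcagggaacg
Bcl2l1: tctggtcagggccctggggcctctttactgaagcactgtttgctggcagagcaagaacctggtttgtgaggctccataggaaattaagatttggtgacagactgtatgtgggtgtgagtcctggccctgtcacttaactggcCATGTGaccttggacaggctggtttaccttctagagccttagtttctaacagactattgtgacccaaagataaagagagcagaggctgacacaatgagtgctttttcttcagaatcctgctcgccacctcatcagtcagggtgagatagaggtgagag
The single CATGTG of Bcl2l1 begins 108 bases before that start. The Bcl2 and Mcl1 windows held neither motif. A match is a string of letters and not a shown binding site, and the absence of one covers these 300-base windows only.

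Neither effector passed the test as deposited. Bax, which moves from the cytosol into the mitochondrial membrane, had 52.9 and 51.4 RPKM in the knockdown libraries, against 50.7 RPKM in the control. The 3 libraries were almost level, with a log2 ratio of 0.04 and a 95% limma interval from -0.13 to 0.21 (limma adjusted p = 0.648). After a correction for transcript length and GC content the direction of Bax turned, with a log2 ratio of -0.28 (limma adjusted p = 0.0127). Exons of Bax share 192 bases with Gm45808, a gene on the same strand that is not among the 12852 genes. Bak1, which sits in the mitochondrial membrane, had 35.9 and 35.4 RPKM after knockdown, against 32.1 RPKM in the control. Both knockdown values were slightly above the control, with a log2 ratio of 0.15 and an interval from -0.035 to 0.33 (limma adjusted p = 0.144). After the same correction it was 0.013. A p above the threshold does not show that the levels were equal. Exons of Bak1 share 437 bases with Ggnbp1 on the opposite strand, which was between 0.811 and 0.871 RPKM in all 3 libraries.

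The Bax window, at chr7:45466849-45467148 on the minus strand, is shown because it held 2 of the 4 E-box matches found among the members.
Bax: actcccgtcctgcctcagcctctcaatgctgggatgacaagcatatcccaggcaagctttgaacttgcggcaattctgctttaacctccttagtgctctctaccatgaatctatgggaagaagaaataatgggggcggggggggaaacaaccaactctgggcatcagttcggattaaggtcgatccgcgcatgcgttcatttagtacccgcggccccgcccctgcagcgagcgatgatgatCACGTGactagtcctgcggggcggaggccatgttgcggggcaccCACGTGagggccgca
The 2 CACGTG matches, in capitals, begin 9 bases before and 35 bases after the annotated start.

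Bbc3, which encodes Puma, a BH3-only protein that binds every anti-apoptotic member and is a classical p53 target, had 21.8 and 20.4 RPKM in the knockdown libraries. The control had 13.9 RPKM. Both knockdown values were above it, and the log2 ratio was 0.57 (SE 0.09, adjusted p = 0.00543 by limma). Bad, a BH3-only protein that binds Bcl2l1 and Bcl2 and is held inactive by phosphorylation, had 4.69 and 4.51 RPKM after knockdown, against 2.82 RPKM in the control. It rose by 0.55 on the log2 scale (SE 0.11, adjusted p = 0.0112 by limma). The exons of Bad share 524 bases with Gpr137 on the opposite strand. Gpr137 had 12.2 and 13.0 RPKM after knockdown, against 9.69 RPKM in the control, and also passed the test (log2 ratio 0.35, limma adjusted p = 0.0320), so the rise of Bad is uncertain. After the length and GC correction the log2 ratios of Bbc3 and Bad were 0.335 and 0.33, still past the test (adjusted p = 0.0153 and 0.0428 by limma).

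One of the 3 RefSeq windows of Bbc3, the most downstream, at chr7:16310181-16310480 on the plus strand, is shown as the other window with CACGTG, in capitals.
Bbc3: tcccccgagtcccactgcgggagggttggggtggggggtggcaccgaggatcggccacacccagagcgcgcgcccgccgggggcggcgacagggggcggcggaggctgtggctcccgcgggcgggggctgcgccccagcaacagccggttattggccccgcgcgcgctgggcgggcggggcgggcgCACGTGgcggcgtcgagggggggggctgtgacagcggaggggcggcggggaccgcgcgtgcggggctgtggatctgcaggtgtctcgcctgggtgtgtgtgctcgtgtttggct
This match begins 64 bases before the annotated start. Whether any of these matches bears on the level of its gene was not tested.

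Bid, which is cut by caspase-8 and carries the death receptor signal to mitochondria, had 1.403 and 1.37 RPKM in the knockdown libraries, against 2.23 RPKM in the control. It fell by 0.44 on the log2 scale (SE 0.11, adjusted p = 0.0248 by limma). Its exons share 628 bases with Bcl2l13, a relative on the opposite strand, which had 17.8 and 19.5 RPKM after knockdown, against 16.9 RPKM in the control. Bcl2l13 was more abundant than Bid in every library and did not pass the test. Bcl2l11, which encodes Bim, a direct activator of the effectors, had 1.59 and 1.46 RPKM after knockdown, against 1.35 RPKM in the control. These low values were close together, with a log2 ratio of 0.11 and an interval from -0.19 to 0.40 (limma adjusted p = 0.483), and after the length and GC correction the log2 ratio was 0.26.

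**Figure D2:**
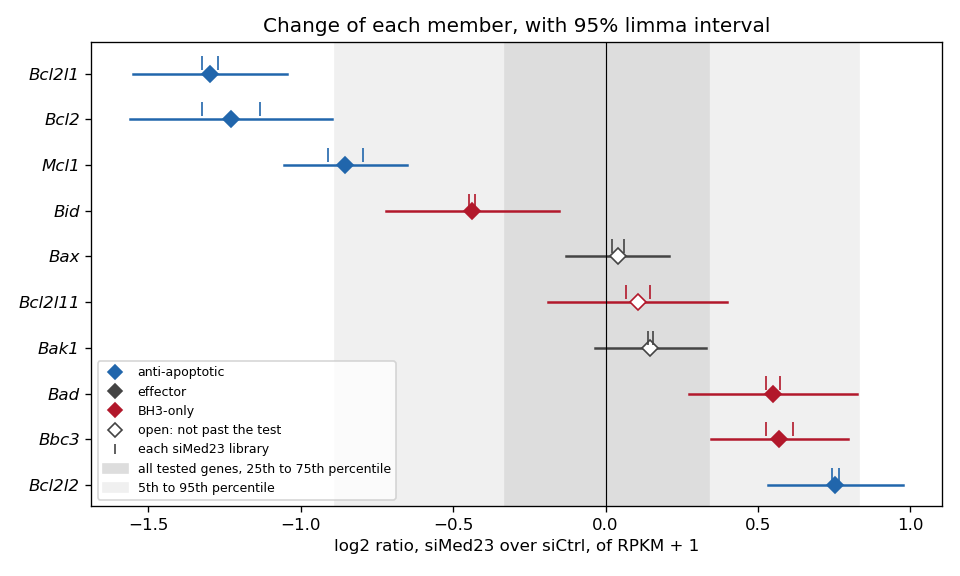
Log2 ratio of each member, siMed23 over siCtrl, of RPKM + 1 (diamond, filled where past limma's test) with its 95% limma interval, the value of each knockdown library as a tick, and the spread of all tested genes as grey bands. Bcl2l1 and Bcl2 lie below the 5th percentile of all tested genes (-0.89), and Bax, Bcl2l11 and Bak1 lie within the middle band (-0.33 to 0.34).

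Because RPKM is per length, the members could be added up by role. The anti-apoptotic genes summed to 59.5 and 63.4 RPKM in the knockdown libraries, against 98.3 RPKM in the control. The effectors summed to 88.8 and 86.9 RPKM after knockdown, against 82.8 RPKM in the control. The BH3-only genes summed to 29.5 and 27.8 RPKM after knockdown, against 20.3 RPKM in the control, and Bbc3 made up 73.9% and 73.6% of the knockdown sums and 68.4% of the control's. The anti-apoptotic sum over the sum of the other 6 genes was 0.503 and 0.553 after knockdown, against 0.954 in the control. Most of the anti-apoptotic difference lay in Mcl1, the most abundant of them. Without Mcl1 and Bax, the top genes of each side, the ratio after knockdown was 0.651 times that of the control, compared with 0.554 times over all 10 members. No test was made of these sums.

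**Figure D3:**
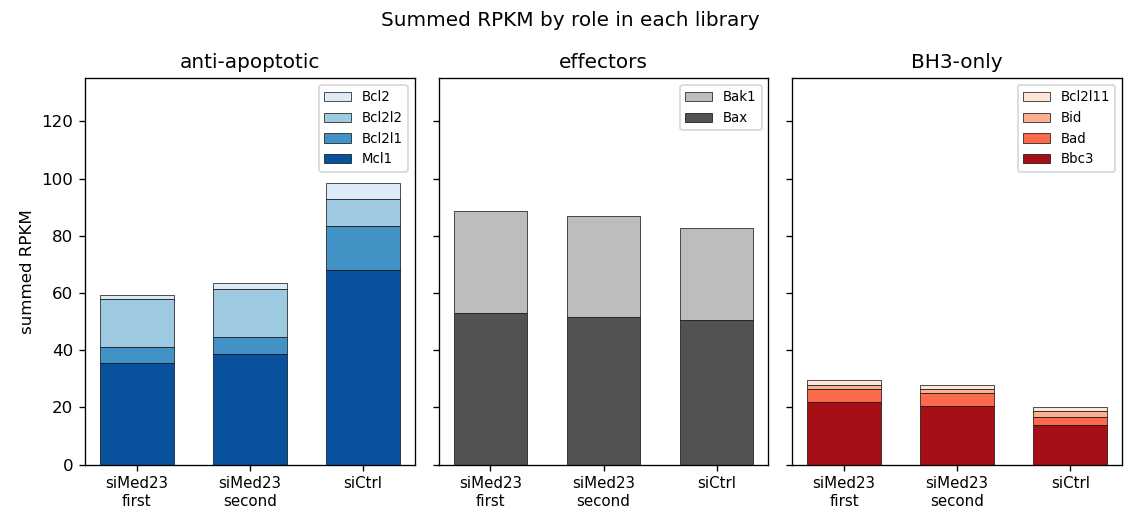
Summed RPKM of the anti-apoptotic, effector and BH3-only members in the first and second siMed23 library and in the siCtrl library, stacked by gene from 0. The anti-apoptotic stack is lower after knockdown (59.5 and 63.4 against 98.3 RPKM), while the effector stacks are nearly level.

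Ratios of opposing genes were higher after knockdown where the anti-apoptotic partner was Bcl2, Mcl1 or Bcl2l1, and lower where it was Bcl2l2. The ratio of Bax to Bcl2 was 33.5 and 26.5 after knockdown, against 9.30 in the control, with Bcl2 lower and Bax nearly level. Bak1 over Mcl1, one of its keepers, was 1.01 and 0.916 after knockdown, against 0.473 in the control. Bbc3 over Bcl2l1 was 3.93 and 3.53 after knockdown, against 0.903 in the control, with Bbc3 higher and Bcl2l1 lower. The ratio of Bax to Bcl2l2 was 3.17 and 3.03 after knockdown, against 5.30 in the control. Bak1 over Bcl2l2 was 2.15 and 2.09 after knockdown, against 3.35 in the control, and Bbc3 over Bcl2l2 was 1.30 and 1.20 after knockdown, against 1.45 in the control. These ratios, and the sums by role, use the values as deposited and were not recomputed after the length and GC correction. That correction gave log2 ratios of -0.28 for Bax, 0.013 for Bak1 and 0.335 for Bbc3. It gave -0.93 for Bcl2, -1.41 for Bcl2l1, -0.84 for Mcl1 and 0.77 for Bcl2l2. Transcript ratios do not give protein ratios, and Mcl1 protein in particular is set largely by its turnover.

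The order of levels also differed. In the knockdown libraries Bax came first, and Mcl1 and Bak1 followed with overlapping values. Bbc3, Bcl2l2, Bcl2l1 and Bad came next, each without overlap with its neighbours. Bcl2 overlapped with Bcl2l11 at the low end, and Bid was last. In the control the order was Mcl1, Bax, Bak1, Bcl2l1, Bbc3, Bcl2l2, Bcl2, Bad, Bid and Bcl2l11, from a single library with no spread to set neighbours apart.

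Among 16 other genes with Bcl2 homology or a related BH3-like part, 7 had values and 5 were tested. By limma's test 1 of these was lower, 1 was higher and 3 were not called, so 40.0% passed beside 50.3% of all tested genes, with a median log2 ratio of 0.13 beside 0.01 over all tested genes. Bnip3, a mitophagy receptor, had 60.1 and 59.8 RPKM after knockdown, against 147 RPKM in the control. Bcl2l12, a divergent relative, averaged 1.503 ± 0.00502 RPKM after knockdown (SD, n = 2), against 0.816 RPKM in the control. Its log2 ratio was 0.46 (adjusted p = 0.0209 by limma). Bcl2l12 was under 1 RPKM in the control and passed the filter through the knockdown libraries. Bmf and Bik, BH3-only genes under the filter and named after their values were seen, were low throughout. Bmf had 0.464 and 0.549 RPKM after knockdown, against 1.01 RPKM in the control, and Bik had 0.0942 and 0.0510 RPKM after knockdown, against 0.109 RPKM in the control.

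Downstream of the membrane, genes of the apoptosome, the caspases, their inhibitors and mitochondrial factors went both ways. By limma's test 5 of the 20 tested were higher (of 22 listed), 6 were lower and 9 were not called, and this share of 55.0% is near the 50.3% of all genes. Their median log2 ratio was -0.04. Birc2, an inhibitor of apoptosis with ubiquitin ligase activity, had 24.3 and 19.5 RPKM after knockdown, against 11.9 RPKM in the control, and rose. Birc6, a very large member of the inhibitor family, had 6.92 and 5.68 RPKM after knockdown, against 11.7 RPKM in the control. Aifm1, a mitochondrial flavoprotein, had 4.48 and 4.72 RPKM after knockdown, against 8.06 RPKM in the control. Both fell.

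In the death receptor arm, which reaches the family through Bid, limma called 1 of 6 tested genes lower (of 10 listed) and left 5 uncalled. This is 16.7% called beside 50.3% of all tested genes (24.0% lower), with a median log2 ratio of -0.17. The one that fell was Tradd, an adaptor of the tumour necrosis factor receptor, at 1.97 and 1.83 RPKM after knockdown and 2.94 RPKM in the control (limma adjusted p = 0.0254).

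Transcription factors known to act on family genes passed in 11 of 12 tested cases (of 13 listed), 91.7% beside 50.3% of all tested genes. Of these, 6 were higher and 5 lower, and the median log2 ratio of the 12 was 0.20. All lists here were chosen with earlier results of these data known, so this share may owe to the choice of genes. Foxo3, an activator of Bcl2l11 and Bbc3, had 7.69 and 8.88 RPKM after knockdown, against 26.6 RPKM in the control. Jun had 95.1 and 102 RPKM after knockdown, against 22.8 RPKM in the control, and Myc had 19.97 and 22.9 RPKM after knockdown, against 8.90 RPKM in the control. Hif1a had 14.3 and 13.1 RPKM after knockdown, against 35.3 RPKM in the control. Mitf and Trp53 were looked at for their links to Bcl2 and Bbc3, after their values were seen. Mitf, an activator of Bcl2, was 4.23 and 3.51 RPKM after knockdown, against 9.003 RPKM in the control. Trp53, an activator of Bbc3 and Bax, was 14.2 and 14.3 RPKM after knockdown and 12.7 RPKM in the control, and was the only one of the 12 that did not pass (limma adjusted p = 0.185). Whether any of these factors bears on the members was not tested.

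Of 20 tested genes (of 21 listed) whose products bind or modify family proteins, limma called 7 higher and 7 lower and left 6 uncalled. This is 70.0% called beside 50.3% of all tested genes, with a median log2 ratio of 0.01. Pim1, a kinase that phosphorylates Bad, had 22.9 and 22.4 RPKM after knockdown, against 8.97 RPKM in the control. Ywhab, a 14-3-3 protein of the kind that holds phosphorylated Bad in the cytosol, had 59.5 and 61.4 RPKM after knockdown, against 115 RPKM in the control. Usp9x, which removes ubiquitin from Mcl1, had 8.14 and 5.42 RPKM after knockdown, against 15.8 RPKM in the control. Bag3, a co-chaperone that binds Bcl2, had 6.02 and 7.19 RPKM after knockdown, against 13.0 RPKM in the control. Pim1 rose and the other 3 fell past limma's test.

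**Figure D4:**
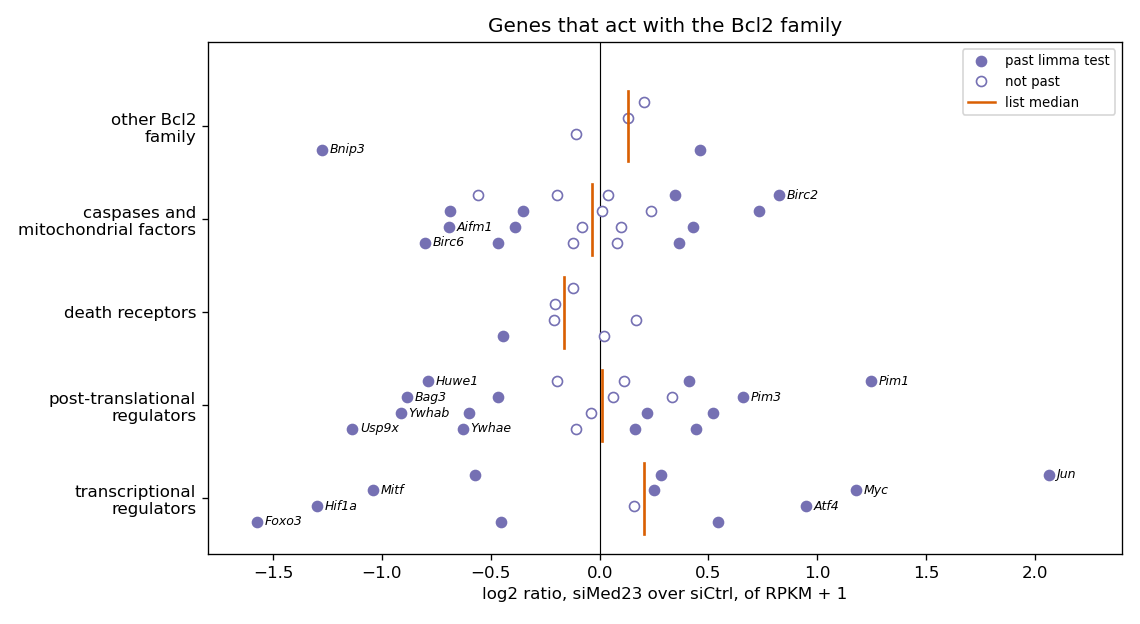
Log2 ratio (siMed23 over siCtrl, RPKM + 1) of the tested genes of 5 lists that act with the Bcl2 family, filled where past limma's test, with each list's median as a line and names for most genes whose ratio exceeds 0.6 in size. The medians lie between -0.17 and 0.20, with genes on both sides of 0 in every list.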

How the data were processed

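RNA sequencing values of 3 libraries of B16F10 cells, 2 siMed23 and 1 siCtrl, were used. Per the labels' protocols, total RNA was extracted with Trizol, purified on columns and made into standard Illumina libraries. The values deposited were RPKM computed by the authors. CASAVA 1.4, TopHat, Cufflinks and mm9 are named in the submitters' processing notes without role or order. Which annotation and strand setting they used is not given in the sources used here. After sorting, the 3 columns were equal within a relative difference of 1e-09 in 95.3% of positions, so the values had been quantile normalized. They hold no depth, cannot show a change in total RNA, and allow no counting interval.

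Values were analysed as log2(RPKM + 1). The 9722 genes averaging 1 RPKM or more were fitted with limma 3.58.1 in R 4.3.3 (eBayes with an intensity trend, Benjamini-Hochberg threshold 0.05). Only the knockdown libraries gave residual freedom (1 degree, with a prior of 4.37). The step was tested on simulated data whose control varied like the knockdown libraries. That test therefore says nothing about the unknown spread of the real control. Other settings tried were no filter or a 5 RPKM minimum, a pseudocount of 0.1, rescaled libraries, no intensity trend, a control SD of 3 times that of a knockdown library, other fold limits, each knockdown library left out, and a loess correction for length and GC content using GENCODE M21 transcripts of 98.9% of tested genes. The 1.5-fold limit was also applied to ratios of RPKM + 1. Members and lists were chosen with earlier results of these data known. Named were the members and up to 4 genes per list that passed with the largest smaller change, apart from genes not reported here. Python 3.11.15, pandas 2.3.3, numpy 2.4.6 and matplotlib 3.10.9 were used.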

Additional observations from a re-analysis of the deposited data

How the results depend on the processing

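The log2 ratios of the 10 members kept their direction under every alternative tried, except that of Bax, which was 0.04 as deposited and -0.28 after the length and GC correction. Apart from the larger control SD, the 7 members past the test stayed past it wherever they were tested. With the control SD at 3 times that of a knockdown library, 0 members passed, with 0 in the caspase, death receptor and post-translational lists. It left 0 other-cell markers, 1 gene in the transcription factor list and 1 in the list of other relatives. Of the 6 melanocyte markers, 5 still passed in that setting, all lower. At an unadjusted p under 0.05 the same setting of limma had 5 members, 4 caspase list genes and 0 death receptor genes. It had 6 transcription factors, 7 post-translational regulators, 6 melanocyte markers, 1 other relative and 1 other-cell marker. Both with the length and GC correction and with no intensity trend, 9 of 12 transcription factors passed in place of 11. In the same settings 12 of 20 post-translational regulators passed in place of 14. With a minimum of 5 RPKM, 6 members were tested and 4 passed, and the list of other relatives had 1 call and the death receptor list 0, because fewer genes were tested. With no filter, 2 other-cell markers passed, 1 higher and 1 lower. At a 2-fold limit 2 members counted in place of 6, and with a knockdown library left out 6 to 7 did. On ratios of RPKM + 1 the 1.5-fold limit was met by 4 members, 1 higher and 3 lower. Bid and Bad, with low values, no longer counted on that scale. The anti-apoptotic ratio relative to the control was 0.651 without the top gene of each side, and 0.527 to 0.580 with a library left out. It was not recomputed after the length and GC correction. Leaving out a knockdown library leaves no residual degrees of freedom, so these are values with no test. No paired analysis was possible because the control is a single library.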
